A study of Mus musculus with 91 samples.

Results

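The cytosolic ribosomal protein genes (RP genes) were taken from the deposited tables by their symbols: every row named Rpl or Rps followed by a number, with the suffixes a, x, y, l or a digit allowed, together with Rplp0, Rplp1, Rplp2 and Rpsa. Names holding -ps, which mark pseudogenes, and the Rps6k kinases were left out. This rule gave 84 of the 34745 rows, and it uses names alone, so no measured value chose a gene. The 84 genes were followed in 91 layer 5 pyramidal neurons (L5 Pyrs) of mouse primary visual cortex (V1), collected by Patch-seq, in which a neuron is recorded with a patch pipette and its soma is then drawn into the same pipette for RNA sequencing. The neurons belonged to 2 types, 47 Pyr←LP neurons, the type driven by axons from the lateral posterior thalamic nucleus (LP), and 44 Pyr←ORBvl neurons, the type driven by axons from the ventrolateral orbitofrontal cortex (ORBvl). All came from wild-type (WT) young adult mice of both sexes, and no group carried a transgene or a drug treatment in its labels. The authors assigned the type of each neuron from the slope of its Ih response, a membrane current opened by hyperpolarization, so the type is a prediction from electrophysiology and not a direct test of the input. The labels do not name the mouse of each neuron. Sample titles carry a prefix, called the recording prefix here although the labels do not say what it marks. It was the only label of a shared origin. The prefix was read without its hyphen, which some titles carry and others lack. Read this way, 14 of the 17 prefixes held both types. Prefix 826 did so only because titles with and without the hyphen were joined.

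Ribosomal proteins are the protein parts of the ribosome: those named Rps belong to the small subunit, which reads the mRNA, and those named Rpl to the large subunit, which joins the amino acids. Their mRNAs are short, are among the most abundant in most cells, and often begin with a run of pyrimidines called a TOP sequence, through which the mTOR pathway controls their translation. The family has also left many processed pseudogenes in mammalian genomes, copies without introns that can be almost identical to the mRNA, which matters for any table that counts reads by where they align.

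Total counts per neuron ran from 2410 to 1948982 (median 423999), and genes with at least 1 count (detected genes) from 1015 to 11013 (median 3648). The kit adds no molecular identifiers, so intervals for shares of neurons cover the sampling of neurons only. The neuronal marker Snap25 had a count in 91 of 91 neurons, and the excitatory markers Slc17a7 and Camk2a in 71 and 67. The GABAergic marker Slc32a1 had a count in 3 neurons and Gad1 in 20, the oligodendrocyte markers Mbp and Mog in 88 and 1, the microglial markers C1qb and Tmem119 in 82 and 11, and the endothelial marker Cldn5 in 1. A pair of Pyr←ORBvl neurons, numbers 5 and 11, had nearly the same profile (r = 0.993 for log2 counts, the next pair of neurons being at 0.711), but they carry different prefixes, differed by more than counting noise (chi-square over its degrees of freedom 3.36) and were kept apart. Pyr←LP neuron 34 stood apart with its 11013 detected genes. All 3 were among 8 neurons that the exclusion rule of the study would remove when applied to the deposited counts. Every deposited total lies above the count minimum of that rule, so the set of neurons that the study left out was not rebuilt exactly, and all 91 were kept here.

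The first question was which RP genes were seen at all. At least 1 count was found for 82 of the 84 genes. Rpl41, which encodes the smallest protein of the large subunit, was the most widely counted, in 86 of 91 neurons (94.5%, 95% Wilson interval 87.8% to 97.6%). Rps14 and Rps19, of the small subunit, were counted in 81 neurons each. The middle of the family was counted in 59.5 neurons (median over the 84 genes), against 29 for the 8267 genes that were tested between the types, those reaching 5 counts in 10 or more neurons. Of the 84 genes, 60 were counted in more than 50% of the neurons.

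At the other end, Rpl10l and Rpl3l had a count in 0 of 91 neurons, which allows a share of up to 3.30% of neurons with a count (3 of 91 neurons, the limit used here for a count of 0, and 4.05% by the Wilson interval). Rpl39l had 9 counts in 1 neuron, a Pyr←LP neuron. These 3 genes are paralogs, second copies of Rpl10, Rpl3 and Rpl39 known for their use in testis (Rpl10l and Rpl39l) and in striated muscle (Rpl3l). The parents were counted in 66, 69 and 47 neurons. The next fewest were Rpl23a in 13 neurons, Rpl27 in 18, Rpl9 and Rpl36a in 20 each, Rps23 in 21, and Rps6 and Rpl11 in 22 each. Rps6 encodes the subunit protein phosphorylated by the S6 kinases, and Rpl11, with Rpl5, carries the 5S RNA into the large subunit. These are core proteins of the ribosome, yet each lacked a count in most neurons.

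**Figure D1:**
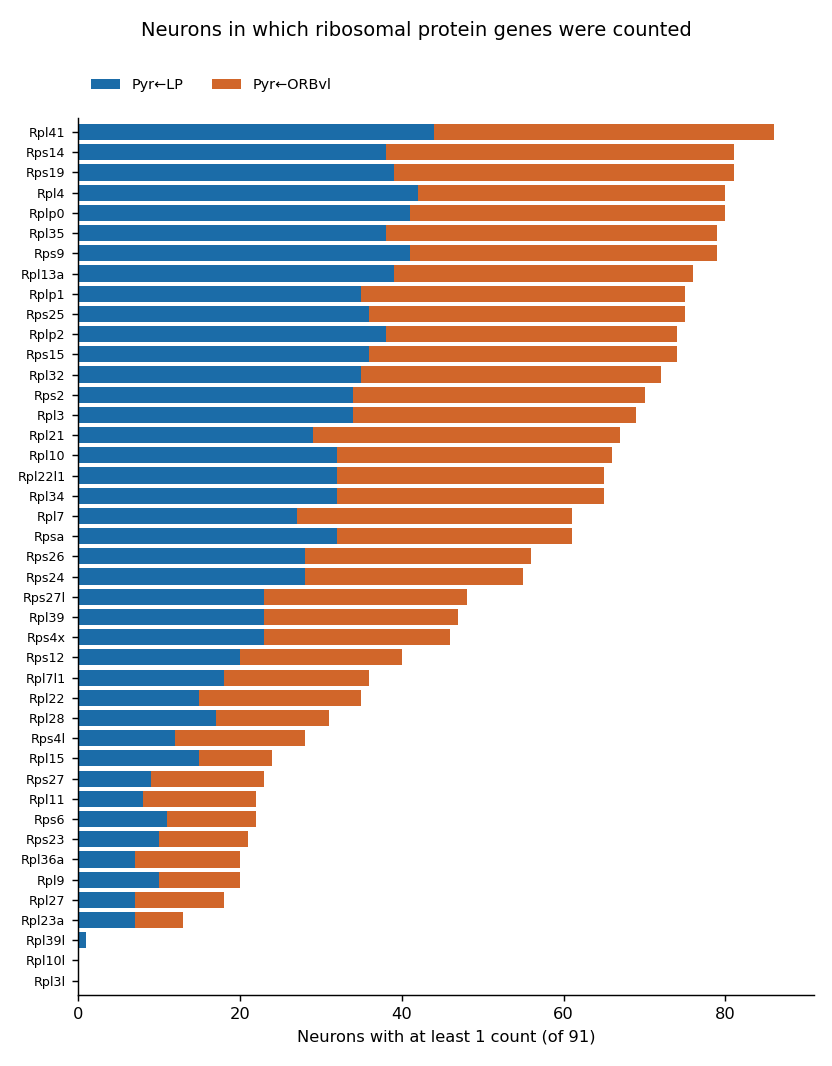
Number of neurons, of 91, in which each of 43 RP genes named in the text had at least 1 count, stacked by type (blue, Pyr←LP, orange, Pyr←ORBvl) and ordered by that number. The bars fall from 86 neurons for Rpl41 to 13 for Rpl23a, and then to 1 for Rpl39l and 0 for Rpl10l and Rpl3l.

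The genes counted in the fewest neurons were set beside the rows named as their pseudogenes. The counts table holds 21 such rows, for 15 parents, and 17 of them had a count. In 5 pairs the pseudogene row was counted in more neurons than the parent. Rpl27-ps3 had a count in 63 neurons and 5006 counts in all, against 18 neurons and 316 counts for Rpl27. Rpl23a-ps3 had a count in 67 neurons and 3342 counts, against 13 neurons and 542 counts for Rpl23a, whose protein lies at the exit of the nascent peptide. Rpl9-ps6 had a count in 65 neurons and 3031 counts, against 20 neurons and 1011 counts for Rpl9. Rpl23a, Rpl27 and Rpl9, each among the 10 RP genes seen in the fewest neurons, thus all had a row named as a pseudogene that held more counts than the gene.

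The overlap of the rows was one-sided. Rpl27-ps3 had a count in 45 neurons without a count for Rpl27, and Rpl27 in 0 neurons without Rpl27-ps3. For Rpl9-ps6 these numbers were 45 and 0, and for Rpl23a-ps3 55 and 1. The remaining pairs of this kind were closer: Rpl39-ps was counted in 55 neurons against 47 for Rpl39, and Rps26-ps1 in 62 against 56 for Rps26. Both types showed it, with Rpl27-ps3 counted in 31 Pyr←LP and 32 Pyr←ORBvl neurons.

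In the annotation (GENCODE M21, GRCm38), Rpl27-ps3 is a processed pseudogene, and its sequence aligned to the Rpl27 mRNA over 411 bases with 0 differences.

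Of the other pairs, Rpl23a-ps3 is a processed pseudogene on chromosome 14 (34170655 to 34171122, plus strand) with 1 difference from Rpl23a in 468 aligned bases. Rpl9-ps6 lies on chromosome 19 (32465865 to 32466578, minus strand), is annotated as protein coding, and has 1 difference from Rpl9 in 596 aligned bases. For Rpl23a, the 60 bases that hold the single difference are shown because the rows are so close that most short reads would match both. They are given 5′ to 3′ for the mRNA (transcript Rpl23a-201, bases 127 to 186) and for the pseudogene row (chr14:34170740-34170799, plus strand), with the differing base in capitals.
Rpl23a: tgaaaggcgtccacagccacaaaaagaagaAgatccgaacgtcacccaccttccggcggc
Rpl23a-ps3: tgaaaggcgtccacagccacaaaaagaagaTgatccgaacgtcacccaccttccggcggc

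Near identity alone did not go with more counts on the pseudogene row. Rpl10-ps3 also aligned to its parent without a difference, over 740 bases, and had 63 counts in 28 neurons against 3693 counts in 66 neurons for Rpl10. Rps12-ps3, with 0 differences over 450 bases, was counted in 12 neurons against 40 for Rps12. The authors kept uniquely aligned reads only, and a read that fits both places equally well is lost under that rule. From which of the copies the counted reads came was not tested.

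**Figure D2:**
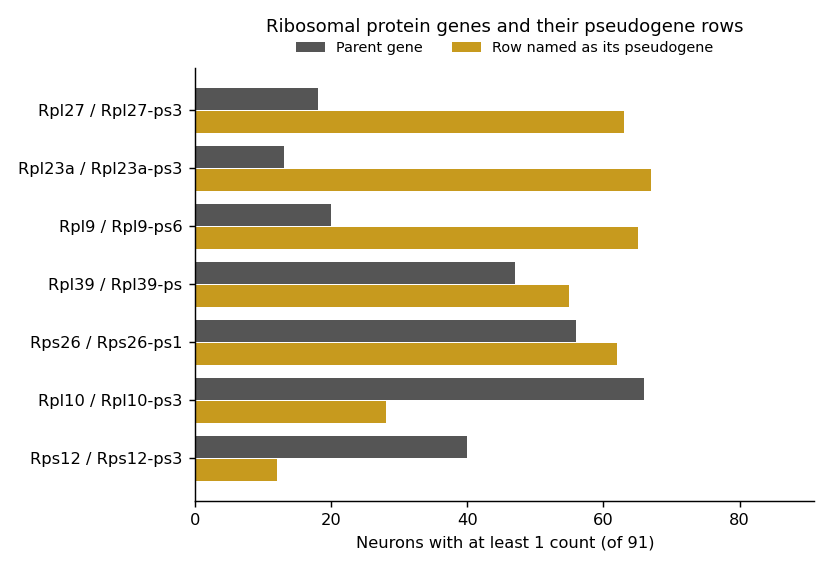
Number of neurons, of 91, with at least 1 count for a parent RP gene (grey) and for the row named as its pseudogene (yellow), for the 7 pairs described in the text. For Rpl27, Rpl23a and Rpl9 the pseudogene row reaches 63, 67 and 65 neurons and the gene 18, 13 and 20.

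The wider family shares sequence as well. For 83 of the 84 genes a coding transcript was found in GENCODE M21, and Rps4l is annotated there as a transcribed processed pseudogene (chromosome 6, 148354656 to 148355598, plus strand). In 80 of the 83, at least one 50-base word of the mRNA, the length of a short read, also occurred in a transcript of another locus, and in 48 more than 50% of the words did (median 53.7%). Rps27 had the highest share, 98.6%, and 3 genes, Rpl3l and Rpl39l among them, had none. Across the 83 genes, this share and the number of neurons with a count had a Pearson r of -0.03 and a Spearman rho of -0.13, and genes above 50% were counted in a median of 60.5 neurons (48 genes) against 59 (35 genes). Genes are not independent replicates, and the share leaves out copies that no annotated transcript covers.

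Levels of different genes were compared per length. The authors' FPKM of a gene equals its count divided by a length and by the total counts of the neuron. By this unit the highest median over the 91 neurons was that of Rplp1, a protein of the stalk that recruits elongation factors, at 371 FPKM (lowest 0, highest 3319). Among the 10 highest were also Rpl4 at 315, Rps15 at 206, Rps14 at 189, Rpl13a at 183, Rpl32 at 136, Rplp0 at 122 and Rps25 at 115. Each of the 10 genes was listed at 0 in at least some neurons, and for each the values of single neurons spread far more widely than the medians of neighbouring genes. In total, 24 of the 84 genes had a median of 0 FPKM.

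The length behind the FPKM was recovered from the ratio of counts to FPKM for 81 genes. For 47 of them it was, within 1 base, the sum over all distinct annotated exons, which counts overlapping exons of alternative transcripts several times. It was 3.39 times the length of the principal mRNA in the median, from 0.521 times for Rps24 to 18.5 times for Rps15a. For these genes a longer list of annotated exons gives a lower FPKM for the same counts. Other genes followed another length: that of Rps24 was 840 bases, where its exons sum to 11063. On the scale of CPM (the count scaled to the total counts of the neuron) per kilobase of principal mRNA, Rps14 was the highest with a median of 640, Rpl41 the next with 508 (its FPKM median was 68.0, rank 14), and Rplp1 had 368. Of the 10 highest genes by each scale, 7 were shared, and Rpl41, Rps9 and Rplp2 were among the 10 on the scale per kilobase of mRNA alone. Over the 83 genes the scales had a Spearman rho of 0.92.

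The stalk proteins Rplp0, Rplp1 and Rplp2, which form 1 structure on the large subunit, were counted in 80, 75 and 74 neurons. Per kilobase of mRNA their median levels were 251, 368 and 209 CPM, while by FPKM they were 122, 371 and 31.2. Rpsa, the small-subunit protein also known as the laminin receptor precursor, was counted in 61 neurons, with a median of 30.7 CPM per kilobase.

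Paralogs of RP genes were not all silent. Rpl22l1 was counted in 65 neurons and its parent Rpl22 in 35. Rps27l was counted in 48 neurons against 23 for Rps27, and Rpl7l1 in 36 against 61 for Rpl7. Rps4l was counted in 28 neurons and the X-linked Rps4x in 46. In FPKM, the median of Rpl22l1 was 16.3 in Pyr←LP neurons (highest 180) and 18.2 in Pyr←ORBvl neurons (highest 91.5), whereas the median of Rpl22 was 0 in both types (highest 300.1 and 20.3). The coding sequences of Rpl22 and Rpl22l1 were 67.5% identical, those of Rps27 and Rps27l 76.1%, of Rpl7 and Rpl7l1 54.5%, of Rpl10 and Rpl10l 84.8%, of Rpl39 and Rpl39l 85.3%, and of Rpl3 and Rpl3l 73.3%.

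The first 60 coding bases of the Rps27 pair are shown because these paralogs, unlike the pseudogene rows above, can be told apart by a short read. They differ at 18 of the 60 bases, in capitals, and the transcripts are those of GENCODE M21.
Rps27: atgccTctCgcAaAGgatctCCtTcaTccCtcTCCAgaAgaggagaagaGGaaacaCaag
Rps27l: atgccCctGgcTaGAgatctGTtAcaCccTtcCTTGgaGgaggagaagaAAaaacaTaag
Yet Rps27 is also the gene with the most words elsewhere (98.6%) while Rps27l had 22.4%. Whether copies of Rps27 elsewhere in the genome lower its unique counts was not tested.

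Starts of transcription were read from RefSeq promoter windows (GRCm38.p6), in which 63 of the 84 genes were matched. A TOP sequence was searched for as a C at the annotated start followed by at least 4 pyrimidines. It was present in 13 of the 63 genes (20.6%), against 3.01% of all 27025 genes in the table. When the run could open anywhere within 10 bases of the annotated start, it was present in 39 of 63 (61.9%), against 34.4% of all genes. Examples are given over 30 bases, from 10 before the start, with the pyrimidine run in capitals, for Rpl15 (chr14:18270967-18270996, minus strand), Rpl35 (chr2:39005112-39005141, minus strand) and Rps6 (chr4:86857348-86857377, minus strand).
Rpl15: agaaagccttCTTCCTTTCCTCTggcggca
Rpl35: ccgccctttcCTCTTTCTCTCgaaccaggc
Rps6: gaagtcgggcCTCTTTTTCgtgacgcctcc
Within the 300-base windows and on both strands, the word CCGGAAG, the core bound by ETS factors, occurred in 41.3% of the RP genes and 9.93% of all genes, and the word AAGATGGC, the core bound by YY1, in 9.52% and 3.19%. The TATA word TATAAA occurred in 11.1% and 15.7%. Genes with these runs stood at both ends of the range of detection, with Rpl35 counted in 79 neurons, Rpl15 in 24 and Rps6 in 22.

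The RP genes together took 373869 counts, 0.783% of all counts in the 91 neurons. The 10 genes with the most counts held 41.2% of these. Rpl4 took 28452 counts (7.61% of the counts on RP genes), Rplp0 20276 and Rps14 20151, which are shares of reads and not levels per length. Per neuron the share of counts on RP genes had a median of 0.741% (lowest 0.251%, highest 1.89%).

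The number of RP genes with a count in a neuron had a median of 52 of 84, with the fewest, 14, in a Pyr←LP neuron of 4214 counts, and the most, 81, in Pyr←LP neuron 34. Its correlation was higher with detected genes than with total counts, a difference that was not tested. Over the 91 neurons, Pearson's r with detected genes was 0.79 and Spearman's rho 0.79 (0.81 and 0.78 without the 2 neurons farthest from the median), while with total counts r was 0.42 and rho 0.42 (0.38 and 0.39 without 2). Among the 72 neurons with at least 100000 counts, rho with total counts was 0.18. Within Pyr←LP neurons rho with detected genes was 0.89, and within Pyr←ORBvl neurons 0.70. In the 8 prefixes with at least 6 neurons it was positive in all 8 (0.59 to 0.96, median 0.87). These are descriptions across neurons that share prefixes, and the RP genes are themselves part of the detected genes.

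A pair of neurons, chosen after the values were seen, illustrates a departure from depth. Pyr←LP neuron 8 had 271608 counts, 1575 detected genes and 18 RP genes with a count, whereas Pyr←LP neuron 12, with 40728 counts, had 3836 detected genes and 61 RP genes. After the 72 neurons with at least 100000 counts were thinned to 100000 counts each, rho with detected genes was 0.72 (r = 0.77). Only 3 prefixes held at least 6 thinned neurons, and within them rho was positive in 3 of 3 but ran from 0.09 to 0.83.

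The share of counts on RP genes behaved differently. Its rho was -0.10 with detected genes (r = -0.11) and -0.15 with total counts (r = -0.18), and within prefixes the rho with detected genes ran from -0.71 to 0.60. With the number of RP genes counted, the share had a rho of 0.34 (r = 0.22). The shallowest neuron, Pyr←ORBvl neuron 19 with 2410 counts, had 16 RP genes and a share of 1.24%, above the median.

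**Figure D3:**
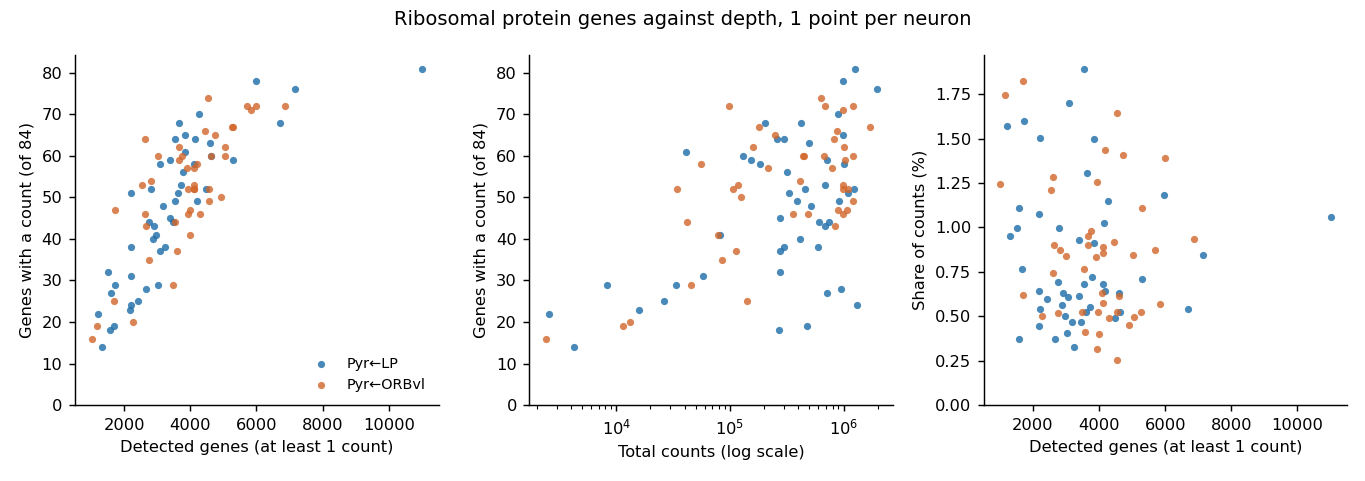
RP genes per neuron against depth, with 1 point per neuron (blue, Pyr←LP, orange, Pyr←ORBvl): genes with a count against detected genes (left) and total counts on a log scale (middle), and share of counts in percent against detected genes (right). The number of RP genes rises with detected genes (rho 0.79) and less closely with total counts (rho 0.42), and the share does not (rho -0.10).

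Other measures did move with the share. The share of counts on the 13 mitochondrially encoded genes had a median of 3.34% in Pyr←LP and 3.29% in Pyr←ORBvl neurons, and it had a rho of 0.58 with the share on RP genes (r = 0.50, and positive in 6 of 8 prefixes). The summed level of 5 microglial markers, with a median of 726 CPM in Pyr←LP neurons (0 to 13405) and 942 in Pyr←ORBvl neurons (0.923 to 9125), had a rho of 0.54 with it (positive in 7 of 8 prefixes). For 4 oligodendrocyte markers, at a median of 1304 in Pyr←LP neurons (0 to 12967) and 2135 in Pyr←ORBvl neurons (2.81 to 23604), rho was 0.54 as well, again positive in 7 of 8 prefixes. For 5 astrocyte markers, with medians of 0 and 0.462, rho was 0.23, positive in 5 of 7 prefixes. For 6 GABAergic markers, with medians of 0 and 3.07 (highest 1239 and 2518), rho was 0.30, positive in 5 of 7 prefixes. Neurons with a count ranged from 4 (Aqp4) to 24 (Slc1a3) over the astrocyte markers, from 11 (Tmem119) to 82 (C1qb) over the microglial ones, from 1 (Mog) to 88 (Mbp) over the oligodendrocyte ones and from 3 (Slc32a1) to 29 (Pvalb) over the GABAergic ones. The part of these transcripts in the share was not tested.

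Genes that work with the ribosome were compared on the same scale. The share of counts on 17 translation factors (among them the elongation factors Eef1a1 and Eef2) had a rho of 0.56 with the share on RP genes, positive in 8 of 8 prefixes, and that of 4 other ribosome genes (among them Fau, made as a fusion with a ubiquitin-like protein, Gnb2l1 and Rpl36al) a rho of 0.50, positive in 8 of 8. For 77 genes of the mitochondrial ribosome it was 0.32, positive in 5 of 8 prefixes. For 21 ribosome biogenesis genes it was -0.14 over all neurons, but positive in 5 of 8 prefixes with a median of 0.10. Within Pyr←LP neurons the rho of these genes was 0.11, and within Pyr←ORBvl neurons -0.42. For 15 genes of the mTOR axis it was -0.18, positive in 3 of 8 prefixes. The mitochondrial ribosome genes had a median of 4747 CPM in Pyr←LP neurons and 4754 in Pyr←ORBvl neurons. Shares of 1 total are bound to each other, so these values describe and do not test.

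Correlations between single RP genes were weak. Of the 84 genes, 81 reached 5 counts in 10 or more neurons, all but Rpl10l, Rpl3l and Rpl39l, and their 3240 pairs had a median Spearman rho of 0.05 over the 91 neurons (log2 of CPM + 1), against 0.07 for the pairs of all 8261 genes with distinct names. Within Pyr←LP neurons these medians were 0.07 and 0.08, and within Pyr←ORBvl neurons 0.04 and 0.05. The pair most alike was Rpl7 and Rps24 (rho = 0.42), then Rpl14 and Rpl37a (0.41). In counts this sparse a weak correlation cannot be read as a lack of shared regulation.

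The second question was whether the types differ. RP genes took a median of 0.684% of the counts in Pyr←LP neurons (lowest 0.327%, highest 1.89%, n = 47) and 0.840% in Pyr←ORBvl neurons (lowest 0.251%, highest 1.83%, n = 44). The means were closer, 0.830% and 0.854%, and both quartiles were lower in Pyr←ORBvl neurons (0.523% and 1.01%) than in Pyr←LP neurons (0.541% and 1.04%). The ranges overlap almost entirely. Within the 14 prefixes with both types the mean was higher in Pyr←ORBvl neurons in 9 and lower in 5. The differences had a median of 0.138 and a mean of 0.195 percentage points (SD 0.379). The largest, 1.11, was that of prefix 826, which held 2 neurons. The share on mitochondrially encoded genes was likewise higher in Pyr←ORBvl neurons in 9 of 14 prefixes (median difference 0.715 and mean 1.05 percentage points, SD 3.15). Prefix 826 again gave the largest difference, 9.40. The part of the mitochondrial share in the result was not tested. As a share of FPKM, the medians were 1.15% and 1.19%.

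Pyr←LP neurons had a count for a median of 49 RP genes (14 to 81) and Pyr←ORBvl neurons for 53 (16 to 74), and the prefix mean was higher in Pyr←ORBvl neurons in 10 of 14 prefixes. The types also differed in their detected genes, with medians of 3241 and 3980.5. In thinned neurons the medians were 47 (n = 38) and 52 (n = 34), with Pyr←ORBvl higher in 7 of 11 prefixes. Gene by gene, 71 of the 84 RP genes were counted in a larger share of Pyr←ORBvl than of Pyr←LP neurons and 11 in a smaller one, against 66.4% larger among the 8267 genes tested. With the counts of the pseudogene rows added to their parents, the medians were 50 and 56.5 RP genes. In single neurons, fewer mRNAs of a gene and less RNA captured from the soma cannot be told apart.

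**Figure D4:**
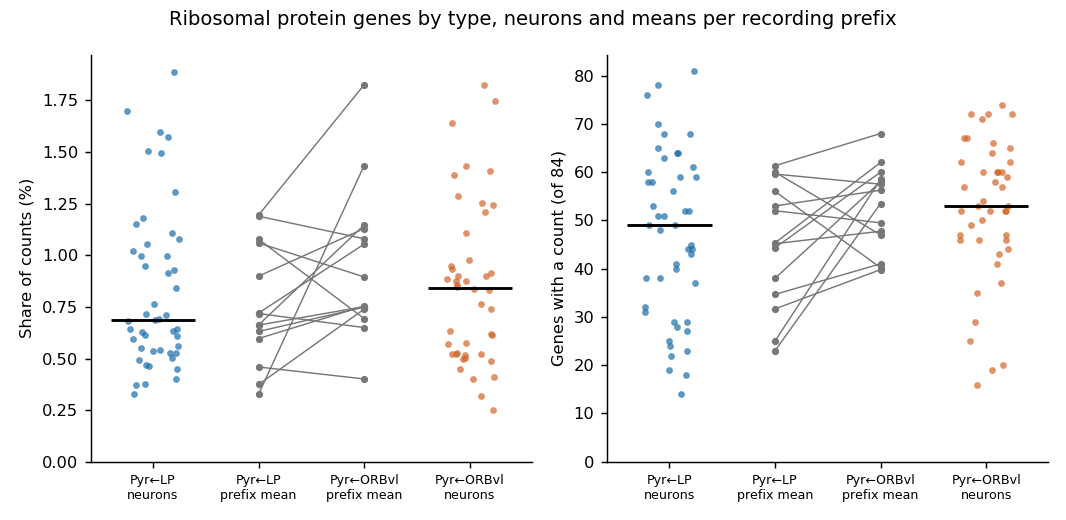
Share of counts on RP genes in percent (left) and number of RP genes with a count (right), for single neurons (colours) with their median (black bar), and as means of each type within 14 recording prefixes (grey points, lines join a prefix). The types overlap: medians are 0.684% and 0.840%, and 49 and 53 genes.

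Differential expression was tested with edgeR on the summed counts of Pyr←LP and of Pyr←ORBvl neurons in each of the 14 prefixes, with the prefix as a block, and a gene was called at an adjusted p under 0.05 (Benjamini-Hochberg over all 8267 genes tested) and a fold change above 2. None of the 81 RP genes tested was called, where 1 of 8267 genes was (0.0121%). At an unadjusted p under 0.05 the count was 0 RP genes, where 4.61% of all genes passed. DESeq2 on the same sums called 0 RP genes, where it called 548 genes (6.63%), and had 3 RP genes at an unadjusted p under 0.05, where 16.1% of all genes passed. With neurons as replicates, the design of the authors, edgeR called 0 RP genes and had 1 at an unadjusted p under 0.05, where it called 130 genes (1.57%) and 9.56% passed the unadjusted threshold. DESeq2 with neurons as replicates called 0 RP genes, where it called 65 genes (0.786%), and had 0 RP genes at an unadjusted p under 0.05, where 6.5% of all genes passed. In both fits DESeq2 gave no adjusted p for some RP genes, among them Rpl36a, Rpl11 and Rpl28, which therefore could not be called.

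These tests leave wide room. In the sums the standard error of a log2 fold change of an RP gene was 1.68 in the median, and the narrowest 95% interval was 3.65 log2 units wide. With neurons as replicates the median standard error was 0.74 and the narrowest interval 1.95 units wide. In either fit 0 of the 81 intervals lay wholly within a 2-fold change, so for no RP gene did the interval leave out a 2-fold difference in both directions. In both fits some left it out in 1 direction. With neurons as replicates that of Rps14 ran from -0.61 to 1.34 and that of Rpl4 from -1.29 to 0.71. In the sums that of Rpl21 ran from -0.86 to 5.10 and that of Rps2 from -0.89 to 4.54.

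The fold changes of the RP genes leaned to Pyr←ORBvl in the sums, where 65 of 81 were above 0 with a median of 0.61 on the log2 scale, against 4794 of 8267 genes and a median of 0.31 for all genes tested. Some other lists leaned the same way in the sums. Above 0 were 14 of 17 translation factors (median 0.61), 54 of 73 mitochondrial ribosome genes (1.02) and 3 of 4 excitatory markers (1.14). So were 3 of 3 oligodendrocyte markers (1.30), 3 of 4 microglial markers (1.04) and 2 of 3 GABAergic markers (0.96). By contrast, 2 of 7 pan-neuronal markers (-0.23), 4 of 8 genes of the mTOR axis (0.10) and 1 of 2 astrocyte markers were above 0. When neurons were replicates, 0 of 4 microglial markers (median -0.53) and 8 of 17 translation factors (-0.04) were above 0. The medians of the excitatory (1.28), GABAergic (0.63), oligodendrocyte (0.57) and mitochondrial ribosome (0.28) lists stayed above 0. The part of glial transcripts in the lean of the RP genes was not tested. With neurons as replicates, 45 of 81 were above 0 with a median of 0.03, against 4611 of 8267 and 0.12. When the prefix was added to this fit as a block, 63 of 81 were above 0 with a median of 0.37, against 0.25 for all genes. With detected genes as a covariate in place of the prefix, 37 of 81 were above 0 with a median of -0.08, against -0.09 for all genes, and with limma on log2(FPKM + 1) 63 of 81 were, with a median of 0.26, against 0.17. The direction of the family was therefore not settled with neurons as replicates.

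The genes nearest to a difference are given by the smallest unadjusted p in each direction of the sums. Rpl21, of the large subunit, had 0 to 1006 CPM in Pyr←LP neurons (median 53.3) and 0 to 609 in Pyr←ORBvl neurons (median 109), with a log2 fold change of 2.12 ± 1.52 in the sums (SE, edgeR, adjusted p = 1.00) and 0.57 ± 0.67 with neurons as replicates. It was counted in 29 of 47 and 38 of 44 neurons, and its level was higher in Pyr←ORBvl in 12 of 14 prefixes. Over the other settings of the sums its adjusted p ran from 0.0602 (DESeq2) to 1.00. Rps2, near the mRNA entry of the small subunit, had medians of 82.5 and 175 CPM (highest 786 and 830), with a log2 fold change of 1.83 ± 1.38 in the sums and 0.79 ± 0.64 with neurons as replicates, and was also higher in 12 of 14 prefixes. The ranges of both genes overlapped between the types.

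Rpl36a was the RP gene with an unadjusted p under 0.05 when neurons were replicates. It had a count in 7 of 47 Pyr←LP neurons (highest 26.9 CPM) and in 13 of 44 Pyr←ORBvl neurons (highest 118), with a median of 0 in both. Its log2 fold change was 2.09 ± 0.76 with neurons as replicates (edgeR, adjusted p = 0.185) and 2.70 ± 1.97 in the sums. Over the other settings with neurons as replicates, the adjusted p ran from 0.0637 to 0.617 where given. DESeq2 with neurons as replicates gave none, and its unadjusted p was 0.214. Rpl11, also on the Pyr←ORBvl side of the sums (2.91 ± 2.44), had a log2 fold change of 0.15 when neurons were replicates.

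On the Pyr←LP side, Rpl28 had a log2 fold change of -0.98 ± 1.56 in the sums and -1.36 ± 0.72 with neurons as replicates, with a count in 17 Pyr←LP and 14 Pyr←ORBvl neurons. Rpl15 had -1.60 ± 2.65 in the sums and was counted in 15 and 9 neurons. Rpsa (-0.83 ± 1.79), Rpl4 (-0.35 ± 0.94) and Rpl34 (-0.50 ± 1.54) followed. All these standard errors come from edgeR, and in the sums each of the 5 fold changes was smaller than its standard error. Of the paralogs, Rpl7l1 had 2.20 ± 2.46 in the sums and -0.11 ± 0.86 with neurons as replicates, so even its direction was not settled.

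**Figure D5:**
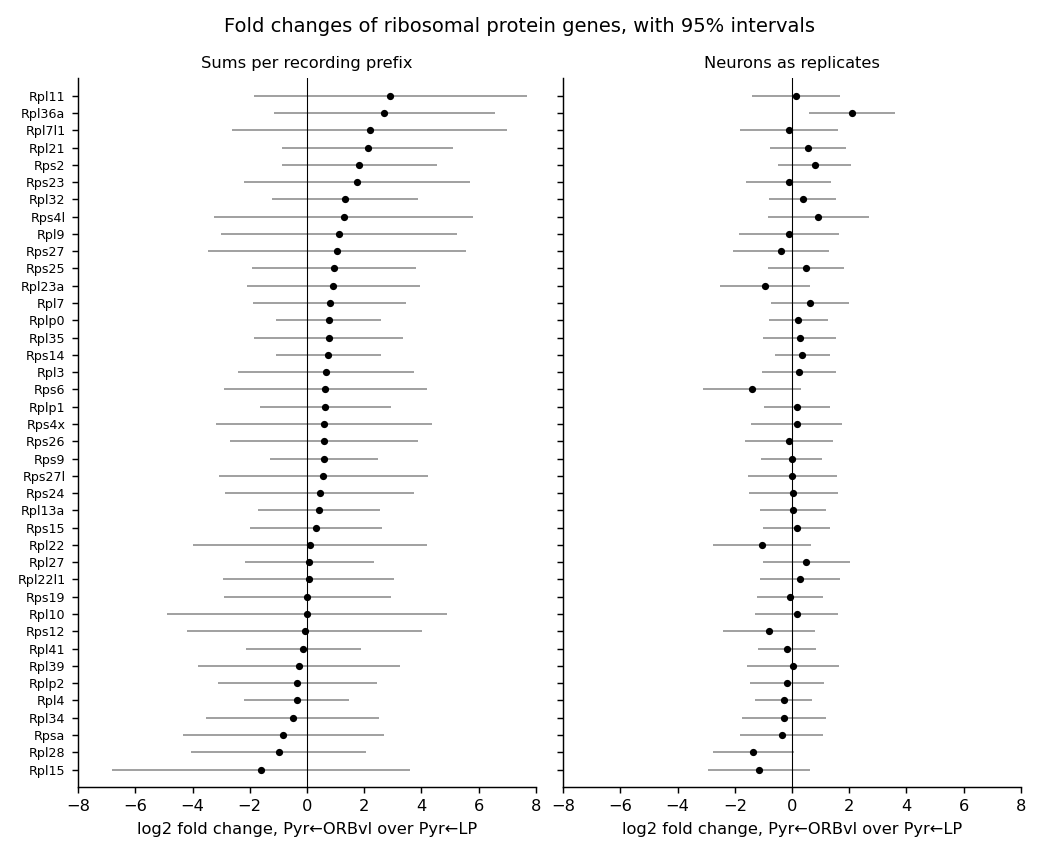
Log2 fold changes of 40 RP genes named in the text (edgeR, positive values higher in Pyr←ORBvl neurons), from sums per recording prefix (left) and with neurons as replicates (right), in the order of the left panel. Points are estimates and lines 95% intervals, and of the intervals drawn only that of Rpl36a in the right panel leaves out 0.

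The other lists were tested in the same fits, where 0.0121% of all genes were called in the sums and 1.57% with neurons as replicates. Of 17 translation factors tested, 0 were called in the sums and 1 with neurons as replicates: Eef1a2, the elongation factor form of mature neurons and muscle, was counted in 22 neurons and had a log2 fold change of 2.89 ± 0.81 (edgeR, adjusted p = 0.0349), but 1.19 ± 2.79 in the sums (adjusted p = 1.00). Eef1a2 was counted in 10 Pyr←LP and 12 Pyr←ORBvl neurons, with a median of 0 CPM in both types. Its relative Eef1a1, counted in 87 neurons, had -0.04 ± 0.46. None of the 73 mitochondrial ribosome genes, 17 ribosome biogenesis genes, 8 genes of the mTOR axis, 4 other ribosome genes and 6 pseudogene rows tested was called in either fit, with 2 mitochondrial ribosome genes at an unadjusted p under 0.05 in each fit (4.61% and 9.56% of all genes passed) and 0 genes of the other 4 lists.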

How the data were processed

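Single L5 Pyrs of mouse V1 (47 Pyr←LP, 44 Pyr←ORBvl) were sequenced after a Smart-seq2-based amplification. The authors aligned reads to GRCm38 with STAR (2.5.3 in the submitters' processing notes), removed PCR duplicates and deposited counts of uniquely aligned reads per RefSeq gene, without normalization, and FPKM values, for which no method is given in the sources used here. The zeros of both tables coincided.

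Neurons were grouped by their deposited subtype label. Within each recording prefix that held both types, the counts of a type were summed (14 prefixes, 81 neurons, 28 sums, of which 6 hold 1 neuron), and genes reaching 5 counts in 10 or more neurons were tested with the quasi-likelihood test of edgeR (version 4.0.16, under R 4.3.3) with robust dispersions, TMM scaling and the prefix as block. The fit with neurons as replicates had no covariate, and its p-values measure the spread between neurons, which share mice. DESeq2 1.42.0 and limma 3.58.1 on log2(FPKM + 1) and log2(FPKM + 0.1) were alternatives, beside other filters, scalings, exclusions, covariates and each prefix left out. Standard errors were derived from each fold change and its F statistic. The fits were tested on simulated data with 200 changed genes. Python 3.11.15 served for shares, thinning and correlations (scipy 1.17.1, pandas 2.3.3, numpy 2.4.6) and for plots (matplotlib 3.10.9).

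The genes and lists were chosen with earlier results of these data known. Genes named are those called, the 5 with the smallest p in each direction of the sums, the 10 highest by median FPKM, the 10 in the fewest neurons, paralogs and their parents, the stalk genes and Rpsa, with others named where a comparison turned on them after their values were seen. Pseudogene rows and levels per kilobase of mRNA were added after the data had been seen. Lengths and pseudogene positions are from GENCODE M21, with the shortest principal coding transcript of each gene. Some genes and sequences that this rule covers are not reported here.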

Additional observations from a re-analysis of the deposited data

How the results depend on the processing

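No RP gene was called in any of the 24 other settings of the sums or in 25 of the 26 of the fit with neurons as replicates. The exception was the fit without a gene filter, which called 1 RP gene, Rpl39l, with 9 counts in 1 neuron, among 5127 of 18674 genes. The number of all genes called was less stable. In the sums it was 1, but 548 with DESeq2, 2 with edgeR's filterByExpr, 24 with no replicate block, 3 under the exclusion rule on counts and 3 on TPM, and 1 to 7 with each prefix left out (7 without 727, 3 without 8-27, 2 without 822 or 902). With neurons as replicates it was 130, but 65 with DESeq2, 201 with detected genes as a covariate, 48 and 58 with limma on log2(FPKM + 1) and log2(FPKM + 0.1), 174 with the prefix as a replicate block, 170 under the exclusion rule on counts (of 7542, with 4 RP genes at an unadjusted p under 0.05), and 56 to 140 with each prefix left out (56 without 822, 83 without 823). The cause was not tested. The blocks changed no call of an RP gene. The median log2 fold change of the RP genes in the sums stayed above 0 in all 24 settings (0.22 to 0.84). With neurons as replicates it turned: it was above 0 in 19 and below 0 in 7 of 26 settings (-0.08 to 0.46), the latter being detected genes as a covariate (-0.08) and leaving out prefix 822 (-0.06), 826, 902, 915, 916 or 919. Of 844 values of 36 named genes in the sums, 843 lay within 1 standard error of the value reported. The other was Rpl9, at -2.19 with no replicate block. The difference in median share between the types ran from 0.0340 (as FPKM) to 0.193 percentage points and that in RP genes counted from 2 to 8.5 genes, Pyr←ORBvl being higher throughout. The few neurons per prefix and the sparse counts limit every comparison of single genes.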
